A study of Mus musculus with 2 samples.

Results

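The endoplasmic reticulum (ER) folding and degradation genes of cartilage cells were compared on 2 Affymetrix mouse genome arrays, 1 of superficial zone (SFZ) cells and 1 of costal chondrocytes (CC). SFZ cells came from the surface of the articular cartilage of femur and tibia, and CC from the ribs, both of ICR mice at postnatal day 4. Both kinds of cells were cultured in DMEM with fetal bovine serum before RNA was taken, and the sources used here do not say how many mice stood behind an array or how long the cells were kept. The labels name no altered gene and no added agent in either group. The gene set holds 41 of the 18193 genes named on the array, and every probe set annotated to one of them alone was taken, 93 of 34945. The set was chosen from the SFZ/CC ratios of these same arrays, so its ratios are a description. With 1 array per cell type there is no replicate error and no test, and no p-value is given.

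The ER is where secreted and membrane proteins enter the export route, and cartilage cells load it with collagen and proteoglycan. The HSP70 chaperone BiP, encoded by *Hspa5*, binds unfolded chains in cycles driven by J-domain proteins and nucleotide exchange factors, lectin chaperones hold chains that carry sugar, and disulfide and prolyl isomerases shape them. Chains that fail are passed back through the membrane and degraded, a route called ER-associated degradation (ERAD). When unfolded chains build up, the sensors IRE1, ATF6 and PERK start the unfolded protein response, in which the transcription factors XBP1 and ATF6 act on promoter elements of chaperone and ERAD genes.

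Values are MAS5 signals, linear intensities per probe set, as the authors deposited them, and a gene is given by its brightest probe set, that of the highest log2 signal averaged over both arrays. To be called higher in SFZ cells a gene needed an SFZ signal above 100 together with an SFZ/CC ratio above 2, and the mirror image applied to CC. Background was set at 28.2 for SFZ cells and 26.0 for CC, the 95th percentile of 86 probe sets for receptors of smell, taste and pheromones. The whole array leaned toward CC, since 32.2% of the 12477 named genes above background had a ratio over 1 and their median log2 ratio was -0.18, against -0.00 once the arrays were scaled to equal medians. Of all genes called in either direction 17.8% lay on the SFZ side, a share that became 30.6% with equal medians and 35.4% with quantile normalization. The labelled cell types showed their markers in part. The cartilage collagen gene *Col2a1* was at 8251 in SFZ cells against 9074 in CC and did not pass. Of 9 chondrocyte markers 2 passed toward SFZ cells, *Matn1* at 9989 and 2692 and *Snorc* at 3818 and 1754, and 0 toward CC. Of 5 superficial zone markers above background only the lubricin gene *Prg4*, at 323 and 73.6, passed toward SFZ cells, while *Vcam1* at 35.7 and 354 and *Thbs4* at 108 and 388 passed toward CC. *Gdf5* at 93.1 and 74.2 and *Erg* at 113 and 65.2 did not pass, and *Cilp* was under background on both arrays. The CC array also carried markers of other cells. Its summed signal over 8 skeletal muscle genes was 27281 against 167 on the SFZ array, over 4 adipocyte genes 10972 against 1007, and over 6 macrophage genes 2016 against 448. All 8 muscle genes, all 4 adipocyte genes, 4 of 6 macrophage genes and 4 of 6 fibroblast genes above background passed toward CC, and 0 of these toward SFZ cells. Plasma cells are rich in ER, and of 4 markers of their lineage *Jchain* and *Cd79a* were under background on both arrays, *Mzb1* was at 37.6 and 33.8, and *Sdc1*, at 213 and 772, passed toward CC. Of 5 markers of hypertrophic chondrocytes *Col10a1*, at 1254 and 126, passed toward SFZ cells, and *Mmp13* at 239 and 3784 and *Panx3* at 158 and 347 toward CC. *Ihh* at 31.5 and 21.7 and *Alpl* at 56.3 and 60.8 did not pass. In bulk RNA a smaller share of one kind of cell and less RNA per cell cannot be told apart, and the part of these cells in the ratios was not tested.

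Of the 41 genes, 17 passed toward SFZ cells and 0 toward CC. Over all named genes 1.18% passed toward SFZ cells and 5.41% toward CC, and over those above background 1.72% were higher in SFZ cells. Among the 41, 39 had a ratio over 1, and the median log2 ratio was 0.61, a ratio of 1.53. The exceptions under 1 were *Dnajc10* and *Txndc5*. The members are bright genes, and 40 were above background on both arrays. Of 28 with a mean signal over 1000, 13 were higher in SFZ cells and none in CC, where all named genes of that range gave 2.26% and 3.02%. Of 12 with a mean signal from 100 to 1000, 3 were higher in SFZ cells, against 1.83% of all genes there. Of the 93 probe sets 30 passed in SFZ cells, against 0.947% of all named probe sets, and none passed in CC. The shares of the members follow from how the set was chosen. The ratios were unequal within the set: 7 members exceeded 3, a further 10 lay between 2 and 3, 5 between 1.5 and 2, and 17 between 1 and 1.5.

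**Figure D1:**
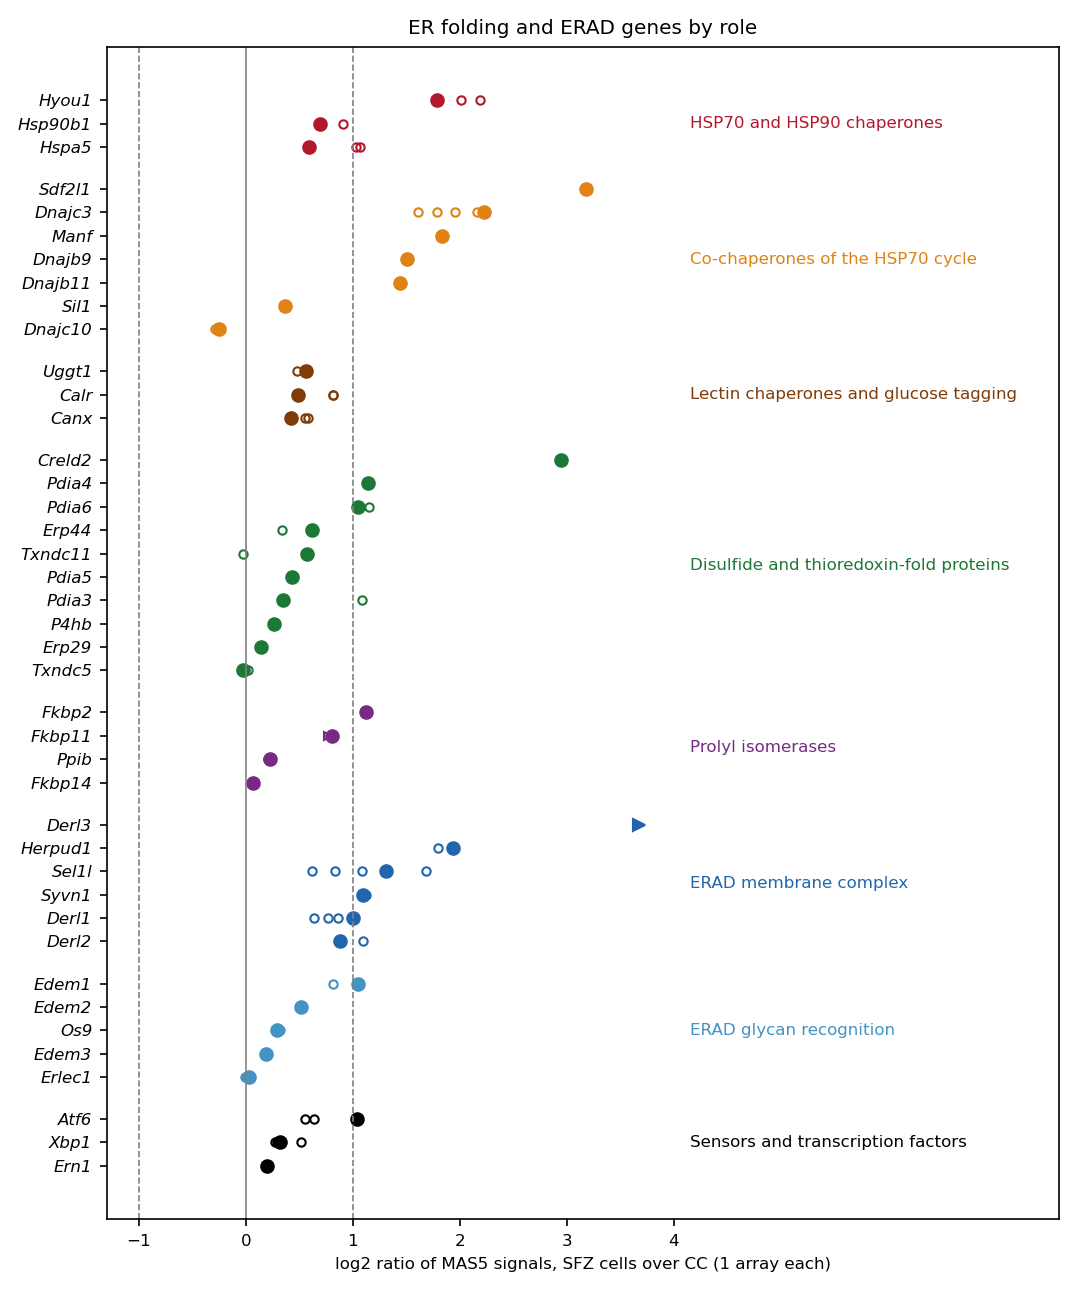
Log2 ratios of MAS5 signals, SFZ cells over CC, from a single array of each, both signals set to at least the background level. Filled marks are the brightest probe set of a gene, open marks its other probe sets above background, and triangles are lower bounds; dashed lines stand at ratios of 2 toward either cell type. The largest ratios are those of *Derl3* at 3.67 as a bound, *Sdf2l1* at 3.18 and *Creld2* at 2.94, and *Dnajc10* is the lowest filled mark at -0.25.

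Of the genes grouped as co-chaperones of the BiP cycle 5 of 7 were higher in SFZ cells. Their median ratio of 2.84 was the highest of the 8 roles, although a larger share of the ERAD membrane complex passed. *Hyou1*, an exchange factor of BiP, was counted with the chaperones instead. *Sdf2l1*, which joins J-domain proteins in keeping chains from clumping, had signals of 4480.5 in SFZ cells against 495 in CC, a ratio of 9.05. It had the highest ratio of the role. *Dnajc3*, which encodes the co-chaperone P58IPK, was at 4396 and 939, a ratio of 4.68. The remaining 4 probe sets gave 4.45, 3.89, 3.45 and 3.04, and all 5 passed. *Manf*, encoding an ER-resident protein that binds BiP and is also secreted, was at 9709 and 2722, a ratio of 3.57. *Dnajb9*, encoding ERdj4, which brings BiP to the sensor IRE1, was at 4762 and 1678, a ratio of 2.84. *Dnajb11*, encoding the luminal J-domain protein ERdj3, was at 1972.5 and 729, a ratio of 2.71. Both other members of this role did not pass. *Sil1*, a nucleotide exchange factor of BiP, was at 496 and 385, a ratio of 1.29. *Dnajc10*, a J-domain protein that also reduces disulfides, was at 1066 and 1270.2, a ratio of 0.839, and its other probe sets lay at 0.840 and 0.820.

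The chaperones themselves had smaller ratios, apart from *Hyou1*. *Hyou1*, a large HSP70 relative that serves BiP as an exchange factor, was at 3446 in SFZ cells against 999.8 in CC, a ratio of 3.45, and its other probe sets gave 4.03 and 4.56. *Hspa5* was at 11157 and 7411, a ratio of 1.51, and did not pass. Its dimmer probe sets did, with 10031 against 4784, a ratio of 2.10, and 912 against 447, a ratio of 2.04. *Hsp90b1*, encoding the HSP90 chaperone GRP94, was at 10788 and 6666, a ratio of 1.62, with 1.87 on its second probe set. Thus the call on BiP turns on which probe set stands for it, while that on *Hyou1* does not.

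None of the lectin chaperone genes passed. *Calr*, encoding calreticulin, was at 7278 and 5181, a ratio of 1.40, and its dimmer probe sets were both at 1.76. *Canx*, encoding the membrane lectin calnexin, was at 6811 and 5084, a ratio of 1.34. *Uggt1*, the enzyme that puts glucose back on misfolded glycoproteins, was at 1094 and 742, a ratio of 1.47. All lay on the SFZ side of equality.

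Of 10 disulfide and thioredoxin-fold genes 3 were higher in SFZ cells. *Creld2*, a secreted and ER-resident protein with an isomerase-like site that is induced in cartilage disease with misfolded matrix, was at 4434 in SFZ cells against 577 in CC, a ratio of 7.68, and it has a single named probe set. *Pdia4*, encoding ERp72, was at 4856 and 2201, a ratio of 2.21. *Pdia6*, encoding the isomerase P5, was at 5427 and 2634, a ratio of 2.06. The isomerases best known in collagen and glycoprotein folding did not pass. *P4hb*, encoding protein disulfide isomerase, which is also the beta subunit of collagen prolyl 4-hydroxylase, was at 8390.2 and 6975, a ratio of 1.20. *Pdia3*, encoding ERp57, the partner of calnexin and calreticulin, was at 8255 and 6472, a ratio of 1.28. The ratios of *Erp44*, *Txndc11*, *Pdia5* and *Erp29* ran from 1.53 down to 1.10. *Txndc5* was at 1974 and 2009, a ratio of 0.983, and thus nearly equal.

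Of 4 prolyl isomerases 1 passed. *Fkbp2* was at 1317 in SFZ cells against 606 in CC, a ratio of 2.17. *Fkbp11*, an isomerase common in secretory cells, was at 676 and 387, a ratio of 1.75. *Ppib*, encoding cyclophilin B, which acts on procollagen, was at 7338 and 6296, a ratio of 1.17. *Fkbp14*, whose loss causes a connective tissue disorder, was at 1101 and 1052, a ratio of 1.05. *Ppib* and *Fkbp14* thus lay nearest to equality in this role.

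In the ERAD membrane complex 5 of 6 genes passed toward SFZ cells, and the median ratio was 2.30. *Derl3*, a derlin of the exit channel, was at 333 in SFZ cells against 10.9 in CC, under background there, which makes the SFZ signal at least 12.8-fold higher. Its widely expressed paralogs differed far less. *Derl1* was at 4264 and 2129.8, a ratio of 2.00 just inside the threshold, and its other 3 probe sets did not pass at 1.82, 1.70 and 1.55. *Derl2* was at 1943 and 1054, a ratio of 1.84 just outside it, with 2.14 on its dimmer probe set. *Herpud1*, a ubiquitin-like membrane protein that organizes the complex, was at 5901 and 1543, a ratio of 3.83, and at 3.48 on its second probe set. *Sel1l*, the adaptor that holds the ubiquitin ligase, was at 2759 and 1111, a ratio of 2.48. Its other 4 probe sets spread from 1.53 to 3.20, and 2 of those passed. *Syvn1*, encoding the ligase HRD1 itself, was at 1408 and 660.2, a ratio of 2.13, with 2.18 on its second probe set.

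The lectins and mannosidase-like proteins that pick glycoproteins for ERAD were less unequal, with 1 of 5 higher in SFZ cells and a median ratio of 1.22. *Edem1* was at 2119 in SFZ cells against 1027 in CC, a ratio of 2.06, and at 1.76 on its second probe set. Its paralogs *Edem2* at 267 and 187, a ratio of 1.43, and *Edem3* at 1442 and 1263, a ratio of 1.14, did not pass. The lectin *Os9* was at 627 and 512, a ratio of 1.22, and its relative *Erlec1* at 1187 and 1166, a ratio of 1.02. The membrane complex and its glycan readers therefore stood at medians of 2.30 and 1.22, and the difference between them was not tested.

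Of the sensors, *Atf6*, a membrane-bound factor that is cut free under ER stress, was at 679 in SFZ cells against 329.6 in CC on its brightest probe set, a ratio of 2.06. Its other 2 probe sets, at 1.46 and 1.55, did not pass. *Xbp1*, the target of IRE1, was at 5790 and 4657, a ratio of 1.24, and its 4 probe sets lay between 1.21 and 1.43. These signals count the transcript as a whole, and the spliced form of *Xbp1* was not measured. *Ern1*, encoding IRE1, was at 746 and 651, a ratio of 1.15, and 3 of its 5 probe sets were under background on both arrays. The transcripts of *Xbp1* and *Ern1* thus differed less than those of several chaperone and ERAD genes, while *Atf6* passed on its brightest probe set alone.

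**Figure D2:**
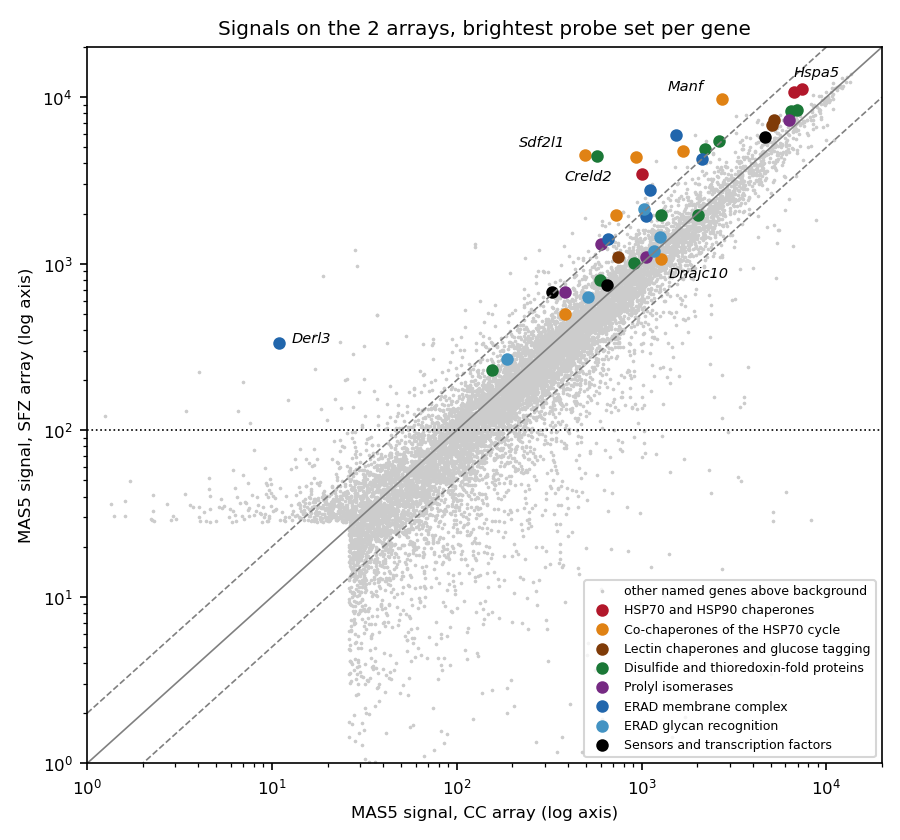
MAS5 signals of each gene on its brightest probe set, CC array on the x axis and SFZ array on the y axis, both log axes, with 1 array each. Coloured points are the 41 members by role, grey points other named genes above background on at least 1 array, and signals under 1 lie outside the axes. The solid line is equality, the dashed lines a ratio of 2 and the dotted line the minimum SFZ signal of 100. *Hspa5*, the brightest member at 11157, lies closer to equality than *Sdf2l1* and *Creld2*, whose ratios rank 2 and 3 of the 41. *Manf* is also bright, at 9709, and has a ratio of 3.57.

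Fewer of the brightest members passed. Of 11 with an SFZ signal over 5000, 3 were higher in SFZ cells, *Manf*, *Herpud1* and *Pdia6*, and over all 195 genes of that range the share was 4.1%. The highest signal on the SFZ array was 13754. Among the 9 of these members with several probe sets above background, the brightest had a lower ratio than the median of the others in 6, *Hspa5* and *Calr* among them. Among the 17 dimmer members this was so in 7. For *Pdia3* and *Pdia6*, both among the 6, the comparison rested on a single dim probe set. These were at 86.5 and 57.9 in SFZ cells and at 40.8 and 26.1 in CC, close to background for *Pdia6*. The same held among the 7 for *Fkbp11*, at 44.2 in SFZ cells and 16.1 in CC. Whether bright probe sets were limited by the range of the scanner was not tested.

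Several probe sets of a gene read the same RNA on the same array and are not replicates. Of 26 members with more than 1 probe set above background, 4 passed on every one, 15 on none and 7 on some. The 4 were *Hyou1*, *Dnajc3*, *Herpud1* and *Syvn1*. The highest ratio of a member was 1.17 times its lowest in the median, and at most 2.09 times, for *Sel1l*. Of 84 member probe sets above background on at least 1 array, 77 had a ratio over 1.

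The members were then searched for the promoter elements of the unfolded protein response. No sequence was used to choose the genes, but ER chaperone and ERAD genes are those on whose elements XBP1 and ATF6 act. A high share of matches was therefore likely beforehand. RefSeq promoter windows on GRCm38.p6, from 250 bases before the start of a gene to 50 after it, were in hand for 34 of the 41 genes, and *Derl1*, *Hyou1*, *Atf6*, *Erlec1*, *Manf*, *Erp29* and *Sil1* had none. The ER stress response element (ERSE), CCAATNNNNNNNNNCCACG, is bound by NF-Y at one end and by ATF6 or XBP1 at the other. On either strand it was in the windows of 9 of the 34 members, which is 26.5%, and in those of 37 of all 27025 genes, which is 0.137%. The 37 include these 9. The shorter ERSE-II, ATTGGNCCACG, was in 2 members, *Herpud1* and *Dnajb11*, and in 0.0444% of all genes. Its ends are those of ERSE in another spacing, with CCAAT turned to the other strand as ATTGG, and no member window held both elements. In *Dnajb11* it lay downstream of the start, at bases 8 to 18 counted from 1 at the start. The core of the unfolded protein response element (UPRE), TGACGTGG, was in *Txndc5* and *Txndc11* and in 0.714% of all genes. The core of the ATF4 composite site, TGATGNAA, was in *Herpud1* and *Txndc5*, a share of 5.88% beside 4.51% of all genes. A match is a description of letters and not of binding.

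Stretches of promoter that hold ERSE or ERSE-II are shown to let the elements be seen beside the ratios, first for members that were higher in SFZ cells. That of *Dnajb11*, whose match lies downstream of the start, is left out. Each runs 5′ to 3′ along the strand of its gene, with ERSE or ERSE-II in capitals, and an element on the other strand reads CGTGG first and ATTGG last.
Creld2 (chr15:88819490-88819568, plus strand): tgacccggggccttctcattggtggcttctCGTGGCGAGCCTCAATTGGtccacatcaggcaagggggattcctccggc
Derl3 (chr10:75893212-75893290, plus strand): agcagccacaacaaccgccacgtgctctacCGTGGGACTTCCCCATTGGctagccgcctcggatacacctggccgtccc
Dnajc3 (chr14:118937797-118937875, plus strand): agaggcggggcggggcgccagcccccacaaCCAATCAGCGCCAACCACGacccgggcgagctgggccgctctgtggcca
Pdia6 (chr12:17266461-17266539, plus strand): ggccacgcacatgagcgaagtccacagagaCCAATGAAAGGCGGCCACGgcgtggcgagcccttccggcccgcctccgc
Syvn1 (chr19:6046502-6046575, plus strand): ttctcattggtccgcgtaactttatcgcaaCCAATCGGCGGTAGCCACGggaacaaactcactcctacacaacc
Herpud1 (chr8:94386347-94386417, plus strand): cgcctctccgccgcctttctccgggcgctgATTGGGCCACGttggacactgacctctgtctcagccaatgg

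The same element stood in the windows of the 4 abundant chaperone genes that did not pass on their brightest probe set, and *Hsp90b1* had it at 2 places.
Hspa5 (chr2:34771995-34772073, plus strand): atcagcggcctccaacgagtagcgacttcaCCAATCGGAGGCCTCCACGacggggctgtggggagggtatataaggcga
Calr (chr8:84847045-84847123, minus strand): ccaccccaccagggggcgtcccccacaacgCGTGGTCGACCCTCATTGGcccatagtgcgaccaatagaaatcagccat
Canx (chr11:50325770-50325848, minus strand): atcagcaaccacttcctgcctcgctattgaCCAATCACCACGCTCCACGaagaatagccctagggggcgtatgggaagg
Hsp90b1 (chr10:86705608-86705686, minus strand): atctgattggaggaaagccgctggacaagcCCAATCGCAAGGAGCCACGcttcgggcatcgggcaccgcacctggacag
Hsp90b1 (chr10:86705503-86705581, minus strand): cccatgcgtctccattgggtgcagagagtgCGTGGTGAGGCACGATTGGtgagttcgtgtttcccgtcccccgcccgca

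Of the 9 members with ERSE, 5 were higher in SFZ cells, and their median ratio was 2.06. Of the 25 members whose window did not hold it, 8 were higher and the median was 1.47. Those that passed had the lower SFZ signals, up to 5427. *Creld2* at 7.68, *Dnajc3* at 4.68, *Syvn1* at 2.13 and *Pdia6* at 2.06 passed, as did *Derl3* with its bound, while *Hsp90b1*, *Hspa5*, *Calr* and *Canx*, with SFZ signals from 6811 to 11157, ran from 1.62 to 1.34. Both members with ERSE-II passed, *Herpud1* at 3.83 and *Dnajb11* at 2.71, and neither with the UPRE core did. *Sdf2l1*, with the second highest ratio of the set, held none of the 4 motifs in its window. The difference between the members with and without an element was not tested.

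**Figure D3:**
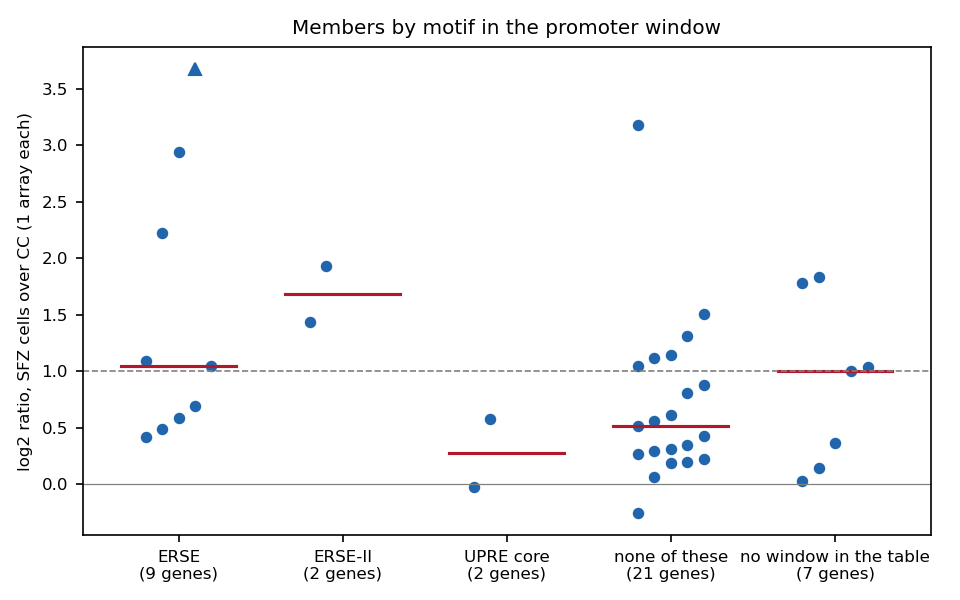
Log2 ratios of the 41 members, SFZ cells over CC, 1 array each, grouped by the motif in their promoter window, with the number of genes under each group. Points are genes, the triangle is the lower bound of *Derl3*, red bars are medians and the dashed line marks a ratio of 2. The 9 genes with ERSE spread from *Canx* at 0.42 to *Derl3* at 3.67, and the 21 with none of the 3 ER stress motifs include *Sdf2l1* at 3.18.

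Other genes of the same routes, left outside a set that was chosen by these ratios, were nearer to equality. Such a difference was likely beforehand. Of 32 other ER folding genes above background 1 passed toward SFZ cells and 2 toward CC, and the median log2 ratio was 0.02. The gene higher in SFZ cells was *Ero1b*, an oxidase that recharges protein disulfide isomerase, at 331 and 65.8, a ratio of 5.03. *Fkbp7* at 504 and 1442, and *Cnpy4* at 269 and 566, were higher in CC. None of 33 other ERAD genes passed in either direction, with ratios from 0.711 to 1.58 and a median log2 ratio of 0.07. None of 9 other sensors and processing enzymes passed, and *Eif2ak3*, which encodes PERK, was at 905 and 733, a ratio of 1.23. The translocon and the COPII and COPI coats, which carry chains into the ER and out of it, had none of 34 genes past the thresholds and a median log2 ratio of 0.07.

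Of 23 genes of the ATF4 and CHOP response, the arm under PERK, 4 were higher in SFZ cells and none in CC, with a median log2 ratio of 0.39. These 4 were *Atf3* at 1213 and 280.1, *Ddit3* at 5888 and 1950.0, *Ppp1r15a* at 2047 and 796, and *Nupr1* at 7658 and 3240.4. *Ddit3* encodes CHOP. The others of that response did not pass, and their ratios ran from 0.662 for *Psat1* to 1.89 for *Slc3a2*, with *Atf4* itself at 1.07. Cytosolic heat shock genes ran the other way, with 4 of 19 higher in CC, none in SFZ cells and a median log2 ratio of -0.46. Those 4 were *Hspb1* at 210.0 and 1366, *Cryab* at 383 and 1342, *Hspb8* at 313 and 666, and *Dnajb4* at 299 and 620.4. Over all named genes above background, 985 of 12477 passed toward CC. The CC array also carried the muscle signal given above, and its part in these ratios was not tested. None of 8 housekeeping genes passed, and their median log2 ratio was -0.16. Set beside the 0.61 of the 41 members these medians are descriptions, and no difference between lists was tested.

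**Figure D4:**
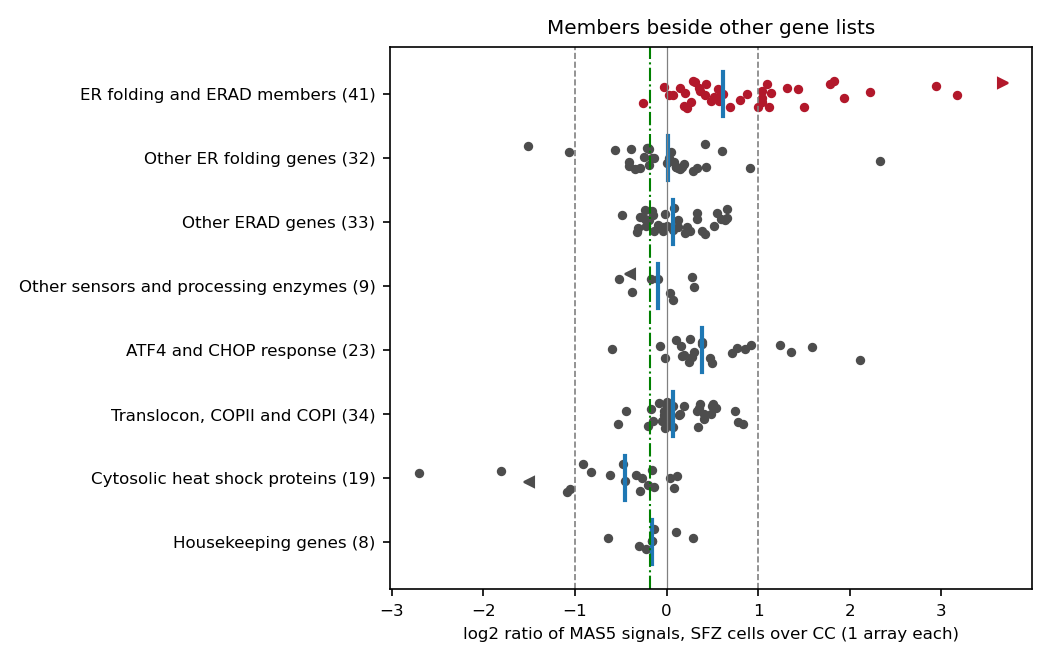
Log2 ratios of MAS5 signals, SFZ cells over CC, from a single array of each and with signals set to at least the background level, for the 41 members and 7 other lists, leaving out genes under background on both arrays. Points are genes, triangles are bounds, blue bars are medians, the green line is the median of all named genes above background at -0.18 and dashed lines mark a ratio of 2. The members lie to the right at a median of 0.61, and the cytosolic heat shock genes lie furthest left at -0.46.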

How the data were processed

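Total RNA of SFZ cells and CC, 1 array each, was labelled as biotinylated cRNA and hybridized to Affymetrix Mouse Genome arrays. The authors deposited MAS5 signals, linear intensities per probe set. For MAS5 the scaling target, the version and the detection calls were not stated in any source used. Signals were used as deposited, without further scaling, and 64 control probe sets were left out.

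Genes were named from the platform annotation, and only from probe sets with 1 symbol. Over the array 932 probe sets had several symbols and 9160 had none. All 41 members matched RefSeq of GRCm38.p6 by Entrez identifier. All members are named, with up to 4 genes past the thresholds in each other list, and *Eif2ak3*, *Atf4*, *Psat1* and *Slc3a2* were chosen after their values were seen. The members and the lists were chosen with earlier results of these data known.

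Counts used the thresholds of the report. For medians, signals were raised to background and genes under it on both arrays left out. The number of arrays limits the precision, since 1 array per cell type leaves no replicate. Motifs were searched on both strands of RefSeq windows, whose direction was checked by the place of TATAAA. It lay 20 to 40 bases before the start 332 times on the plus strand and 323 times on the minus strand. At 20 to 40 bases after the start it lay 42 and 64 times. The code for the calls was run on simulated data with a chosen level of noise, in which every planted change lay well past the thresholds. That run says nothing on ratios near the thresholds or on the noise of these arrays. The alternatives were scaling, low signals, thresholds and the rule for probe sets. Protein sequences were not used here. Python 3.11.15, numpy 2.4.6, pandas 2.3.3 and matplotlib 3.10.9 were used.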

Additional observations from a re-analysis of the deposited data

How the results depend on the processing

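Under 12 alternatives none of the 41 genes was higher in CC. The 17 higher in SFZ cells became 18 with equal medians, where *Derl2* was added, and 19 with quantile normalization, where *Derl2* and *Fkbp11* were. With 64 added to both signals the count was 15, without *Derl1* and *Atf6*, and where every probe set above background had to pass it was 12. At a ratio over 3 it was 7 genes and 15 probe sets, and at a ratio over 1.5 it was 22 genes. *Hyou1*, *Dnajc3*, *Sdf2l1*, *Manf*, *Creld2*, *Derl3* and *Herpud1* passed under each alternative. Of these *Sdf2l1*, *Manf*, *Creld2* and *Derl3* have 1 probe set each, so rules that combine the probe sets of a gene could not change their calls. *Derl1*, *Edem1* and *Atf6* did not pass by the median over the probe sets of a gene, and *Hspa5* and *Fkbp11* did. *Derl1* also did not pass without probe sets that can bind several transcripts. The median log2 ratio of 0.61 became 0.80 with equal medians, 0.79 with quantile normalization and 0.78 by the median over probe sets. The 214 genes higher in SFZ cells became 333 and 376 by these scalings, 136 with 64 added, 527 at a ratio over 1.5 and 81 at a ratio over 3. The 985 higher in CC became 754, 685, 638, 1901 and 524 in the same order. A stricter or looser ratio moves such counts by its own definition, and the cause was not tested where scaling moved them. No sample could be left out and no paired analysis was possible because each cell type has 1 array.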

Other observations

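ERSE was also in the promoter windows of 6 genes outside the set that were above background on at least 1 array. Of these, *Ero1b* and *Alg12* passed toward SFZ cells, and 0 passed toward CC. *Ero1b*, the oxidase named above, had a ratio of 5.03, and *Alg12*, a mannosyltransferase that builds the sugar chain put on new glycoproteins, was at 304 on the SFZ array against 104 on the CC array, a ratio of 2.92. The other 4 were *Zfp57* at 32.0 and 17.2, *Adcy3* at 248 and 242, *Pan2* at 117 and 145, and *Spats2l* at 677 and 1111. Among 9993 genes outside the set whose windows did not hold it, 153 were higher in SFZ cells, a share of 1.53%. With 6 genes the difference was not tested. Among 112 genes outside the set with the UPRE core, 7 passed toward SFZ cells, a share of 6.25%, and 1 toward CC. Among 9887 without it, 148 passed toward SFZ cells. Of 6 with ERSE-II 0 passed in either direction. Of 276 with the core of the ATF4 composite site 9 passed toward SFZ cells, a share of 3.26%, and 22 toward CC. Among 9723 without it, 146 passed toward SFZ cells. Toward CC, 985 of all 12477 named genes above background passed, so the 22 alone do not show a lean toward CC. These differences were not tested.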
